A study of Mus musculus and Homo sapiens with 81 samples.

Results

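IFNB1, which encodes the type I interferon beta, and the type III or lambda interferon genes IFNL1, IFNL2 and IFNL3 were read from the raw count tables of 4 human cancer cell lines. The lambda genes are listed there under the older symbols IL29, IL28A and IL28B. These 4 rows were chosen by name from 23227 gene rows, with their counts already known, so their counts are given as a description and carry no test. The libraries were made by poly(A) RNA sequencing of A375 and MelJuSo (melanoma), A549 (lung carcinoma) and HT29 (colon carcinoma) cells, 39 libraries in 16 groups. All cells expressed Cas9 and carried either the non-targeting guide Bro4 (control) or a guide labelled Ptpn2sg3 (Ptpn2-null), 1 guide per genotype. PTPN2 is a tyrosine phosphatase that acts on JAK and STAT proteins. Each genotype of each line received vehicle (PBS with 0.1% BSA) or 100 ng/mL interferon gamma (IFNg) for 48 hours. Groups held 3 libraries in A375 and MelJuSo and 2 in A549 and HT29, except the A375 control vehicle group with 2. With a single guide per genotype, an effect of the gene and any other difference between the cells carrying each guide cannot be told apart. No label tells separate cultures from repeat libraries of 1 culture, so the spread between them may be technical.

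Interferon beta and the lambda interferons are secreted when a cell detects nucleic acids in the wrong place. RIG-I and MDA5 act through MAVS, cGAS through STING, and TLR3 through TICAM1; all lead to the kinase TBK1, to IRF3 and IRF7, and to NF-kB, which bind together at the IFNB1 promoter. Interferon beta is sensed by IFNAR1 with IFNAR2, and the lambda interferons by IFNLR1 with IL10RB, a pair found mainly on epithelial cells. Both receptors signal through JAK1, TYK2, STAT proteins and IRF9 to antiviral genes such as ISG15, IFIT1 and MX1, whereas IFNg uses a receptor of its own.

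Library totals ran from 4191317 to 9605776 counts in the human lines. The targeted gene, PTPN2, was lower in the libraries labelled Ptpn2-null in 7 of the 8 comparisons of a line and treatment. The exception was A375 in vehicle, where libraries labelled Ptpn2-null held PTPN2 at 24.1 to 25.1 CPM (counts per 1000000 counts of a library) and those labelled control 12.2 to 12.5, against their labels. In HT29 the PTPN2 log2 fold change of Ptpn2-null against control was -0.82 ± 0.11 (SE) in vehicle and -0.57 ± 0.10 under IFNg. The first HT29 control IFNg library is labelled as HT29 by line but as lung by cell type; the summed colon epithelium markers of that group were 738 to 746 CPM, against 14.7 to 36.4 CPM in A549, so it was kept as HT29. Of the 7 melanocyte markers only TYR had no count in an A375 group, and it had none in 3 of the 4. Their summed level in the A375 libraries was 160 to 294 CPM, against 3442 to 4912 CPM in MelJuSo.

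In HT29, all 4 interferon genes were at or near 0 in vehicle and reached at least 81 counts in every library under IFNg. IFNB1 had 139 and 138 counts in the control IFNg libraries, 152 and 90 in the Ptpn2-null IFNg libraries, 0 and 0 in control vehicle, and 5 and 1 in Ptpn2-null vehicle. In the same order of groups, IFNL1 had 640 and 678, 564 and 494, 2 and 2, and 3 and 2 counts. IFNL2 had 90 and 97, 162 and 152, 1 and 1, and 1 and 2 counts, and IFNL3 had 81 and 95, 94 and 87, 0 and 0, and 0 and 1. For each of the 4 genes, every IFNg library lay above every vehicle library of either genotype. In these bulk libraries, a change in the number of cells expressing a gene and a change in RNA per cell cannot be told apart.

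**Figure D1:**
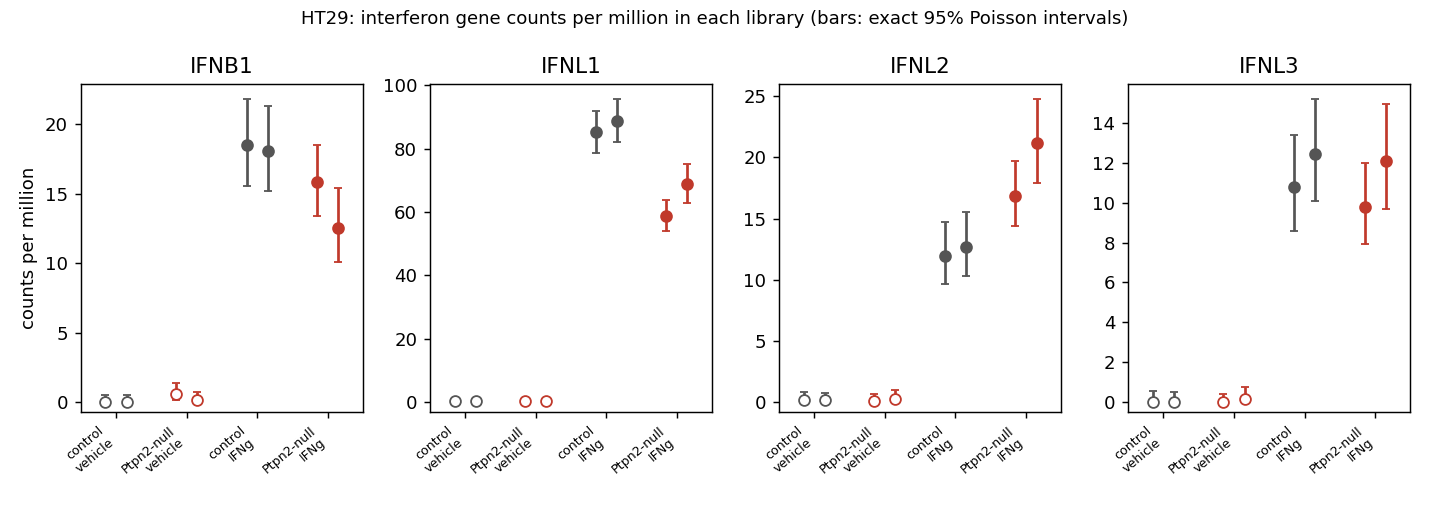
CPM of IFNB1, IFNL1, IFNL2 and IFNL3 in each HT29 library, with exact 95% Poisson intervals that cover counting error only. Each panel has its own linear axis; open circles are vehicle and filled circles IFNg libraries, grey for control and red for Ptpn2-null. Vehicle libraries lie near 0, and for IFNL2 both Ptpn2-null IFNg libraries lie above both control IFNg libraries.

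As CPM, IFNB1 under IFNg was 18.3 ± 0.299 (SD, n = 2) in control and 14.2 ± 2.34 (SD, n = 2) in Ptpn2-null HT29 cells. Against a floor of 3 counts over the control vehicle group, the control IFNg level was at least 87.5-fold higher; with 1 control vehicle library left out the same floor gave at least 45.7-fold (without replicate 1) or 41.7-fold (without replicate 2). In Ptpn2-null cells the summed counts gave a ratio of IFNg over vehicle of 39.05, with a 95% counting interval of 17.7 to 107. That ratio rests on 6 vehicle counts, 5 of them in 1 library: it was 109 without Ptpn2-null vehicle replicate 1 and 25.1 without replicate 2. For IFNL1 the ratio was 312 (122 to 1147) in control and 205 (87.5 to 632) in Ptpn2-null cells. For IFNL2 it was 88.6 (24.2 to 737) and 101 (34.4 to 494), the latter 163 without Ptpn2-null vehicle replicate 2. For each of these genes the IFNg level was thus far above the vehicle level, with wide intervals set by the few vehicle counts. IFNL3 was at least 55.6-fold higher in control cells, and 175-fold (31.1 to 6959) in Ptpn2-null cells, a value that rests on 1 vehicle count. The IFNL3 control bound was 29.0 or 26.5 without control vehicle replicate 1 or 2, and the Ptpn2-null ratio was 81.5 without Ptpn2-null vehicle replicate 1 and at least 31.2 without replicate 2. These intervals cover counting error and not the spread between cultures. Levels here are CPM on total counts; TMM scaling, which centres the bulk of genes between libraries, shifts HT29 IFNg against vehicle by 0.28 on the log2 scale, so that these folds would be about 1.21 times as large.

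Between genotypes under IFNg, the ratios of the HT29 interferon genes lay on both sides of 1. IFNB1 in Ptpn2-null cells was 0.788 of the control level, with a 95% counting interval of 0.660 to 0.940, and neither Ptpn2-null library reached a control library. IFNL1 was 0.724 of control (0.667 to 0.786), also with no overlap. IFNL2 was 1.51 times control (1.26 to 1.82), with both Ptpn2-null libraries above both controls. IFNL3 was 0.927 of control (0.750 to 1.15), its libraries overlapped, and the ratio was 1.04 without Ptpn2-null IFNg replicate 1. With 2 libraries a group these separations rest on few values, and the share of all genes that separate likewise is not given. By edgeR, 21.3% of all tested genes were called higher and 20.5% lower in this comparison, which was not applied to the interferon genes. The Ptpn2-null IFNB1 levels, 15.8 and 12.5 CPM, differed more from each other than the control levels, 18.5 and 18.1 CPM.

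IFNL2 and IFNL3 are near-identical copies, and how the counting assigned reads that fit both is not given in the sources used here, so their separate values are uncertain. IFNL2 counts were 1.11 and 1.02 times the IFNL3 counts in the control IFNg libraries and 1.72 and 1.75 times in the Ptpn2-null IFNg libraries. Summed over both rows, the level was 22.8 and 25.2 CPM in control and 26.7 and 33.2 CPM in Ptpn2-null IFNg libraries. The summed level of the pair was thus higher in both Ptpn2-null libraries than in both controls.

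The other 3 lines gave almost no reads for these genes under either treatment. Together their 31 libraries held 16 counts of the 4 genes, against 3753 in the 4 HT29 IFNg libraries and 21 in the 4 HT29 vehicle libraries. The HT29 IFNg libraries thus held 99.0% of all human counts of these genes. No library of the other lines had more than 3 counts of any of them. IFNB1 was counted 8 times in A375, with 3 of these in the library labelled Ptpn2-null IFNg replicate 3, never in A549 and once in MelJuSo. IFNL1 was counted 4 times in A549, 3 of them in Ptpn2-null IFNg replicate 1, and once in MelJuSo. IFNL2 had no count in any of the 3 lines, and IFNL3 had 1 count each in A375 and MelJuSo.

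**Figure D2:**
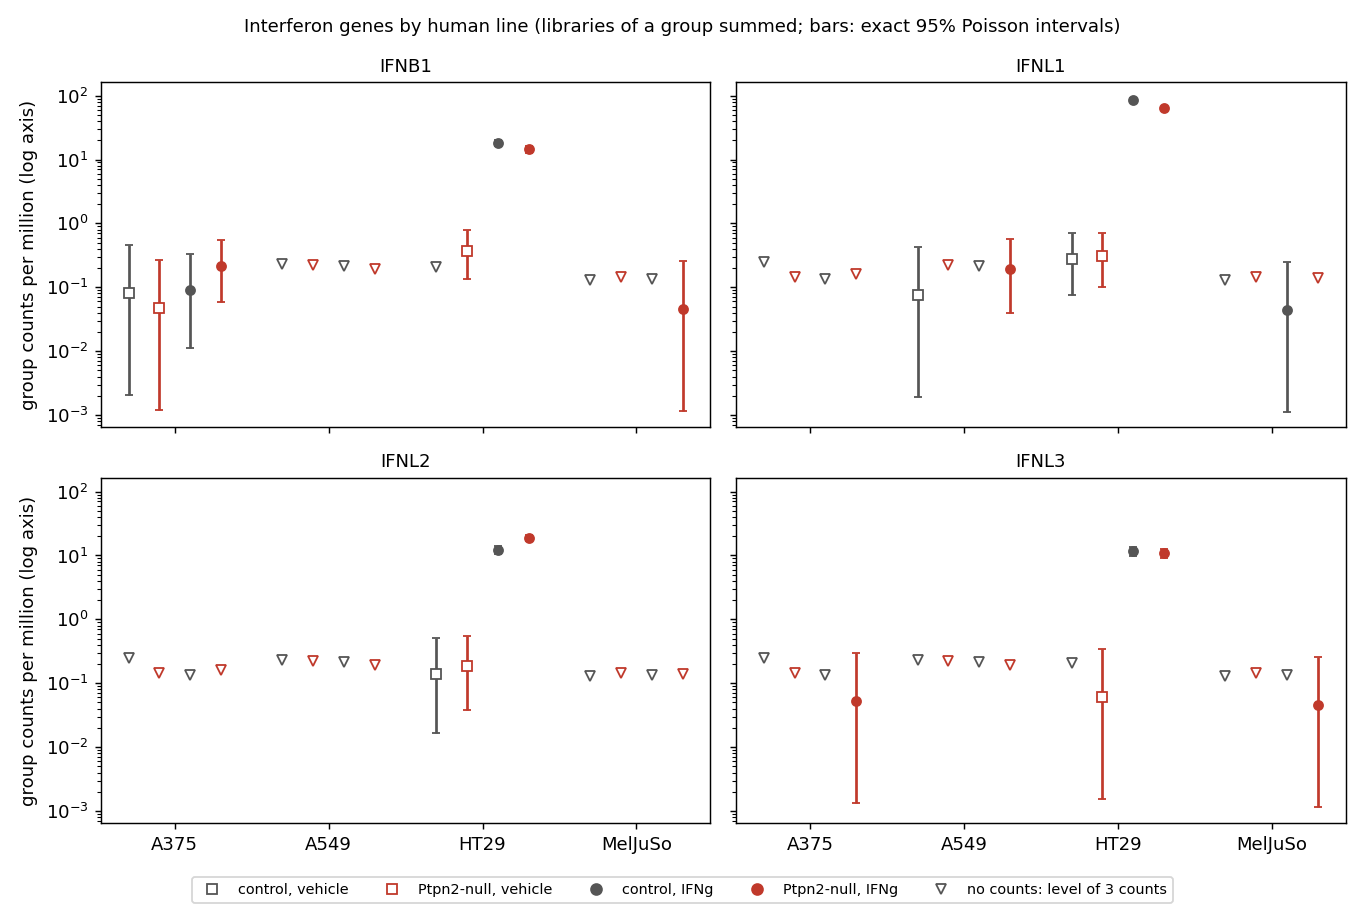
CPM of the 4 genes in each of the 16 human groups, libraries of a group summed, on a log axis with exact 95% Poisson intervals that cover counting error only. Triangles mark groups with no count, drawn at the level of 3 counts. Over the panels, the 2 HT29 IFNg groups lie between 10.8 and 87.0 CPM, and every other group lies under 1 CPM.

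Ordered by summed level, IFNB1 was highest in HT29 control IFNg (18.3 CPM, interval 16.2 to 20.6) and next in HT29 Ptpn2-null IFNg (14.4, 12.7 to 16.3), 2 groups whose counting intervals just meet. HT29 Ptpn2-null vehicle followed at 0.369 CPM (0.135 to 0.803), then the A375 group labelled Ptpn2-null IFNg at 0.215 CPM (0.0585 to 0.550), and their intervals overlapped. All further groups had 0 to 2 counts and could not be ordered at this depth; in A549 control IFNg, for example, 0 counts have a 95% Poisson upper limit of 0.264 CPM. For IFNL1 the order was again HT29 control IFNg (87.0 CPM, interval 82.4 to 91.8) above HT29 Ptpn2-null IFNg (63.0, 59.3 to 66.9), and for IFNL2 the reverse (12.3 and 18.7 CPM).

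The genes whose group levels across the 16 human groups were most like those of IFNB1, by Pearson r of log2(CPM + 0.1) among 16637 genes, were IFNL3 (0.980), N4BP1 (0.972), TNF (0.970), CCL22 (0.967), IFNL2 (0.964) and KIAA1239 (0.964). IFNL1 ranked 15, with r = 0.947. These correlations describe 16 points of which 2 hold nearly all of the signal. TNF, an inflammatory cytokine, had 33 and 85 summed counts in the control and Ptpn2-null HT29 IFNg groups, 2 in HT29 Ptpn2-null vehicle and none in HT29 control vehicle or in any library of the other 3 lines. CCL22, a chemokine for CCR4-bearing T cells, reached 16.8 and 16.2 CPM in the control and Ptpn2-null HT29 IFNg groups, 0.0697 and 0.492 CPM in the matching vehicle groups, and at most 0.0751 CPM in another line. N4BP1 followed another course in level, at 59.1 CPM already in HT29 control vehicle and up to 78.0 CPM in other lines.

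Other interferon genes stayed low. Of 18 listed, 17 had a row, and 7 of these had no count in any HT29 library, 13 each in A375 and A549, and 15 in MelJuSo. Within HT29, 15 rows had no count in control vehicle, 15 in Ptpn2-null vehicle, 14 in control IFNg and 7 in Ptpn2-null IFNg. IFNA8, IFNA10, IFNA14, IFNA16, IFNA17 and IFNA21 were counted in HT29 only in the Ptpn2-null IFNg group, with at most 2 counts of any of them. IFNA1, an alpha interferon, had 12 counts over all HT29 libraries, and IFNG, which encodes IFNg itself, had none. IFNA7 had 11 counts, all in the 4 IFNg libraries and none in vehicle, and 8 of them were in 1 library. IFNE, the epsilon interferon of epithelia, was the only one with enough counts to test. In HT29 it did not follow IFNB1: it was 5.11 and 5.60 CPM in control vehicle, 7.13 and 8.46 in Ptpn2-null vehicle, 4.79 and 3.14 in control IFNg and 2.50 and 4.17 in Ptpn2-null IFNg. Averaged over both genotypes, its log2 fold change with IFNg was -0.58 ± 0.19 in HT29 (edgeR adjusted p = 0.00484) and +1.96 ± 0.34 in A375. The HT29 call ended without Ptpn2-null IFNg replicate 1 (-0.39).

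The sensors upstream of these genes rose with IFNg in HT29. Pathway genes were tested with edgeR's quasi-likelihood test in each line, with p-values adjusted over all tested genes. Below, "rose" and "fell" mean an adjusted p under 0.05. All changes with IFNg given below are averages over both genotypes, and are not the response of either genotype alone. Of 15 sensors and adaptors tested in HT29, 14 rose with IFNg averaged over both genotypes and 1 (MAVS, -0.37 ± 0.04) fell, where 36% of all tested genes rose and 37.4% fell; their median log2 fold change was 2.06, against -0.03 for all genes. IFIH1, which encodes MDA5, rose by 5.24 ± 0.04 on the log2 scale, DDX58, which encodes RIG-I, by 4.13 ± 0.04, and TMEM173, which encodes STING, by 2.66 ± 0.06. MB21D1, which encodes cGAS, rose by 1.10 ± 0.06. ZBP1, a sensor of Z-form nucleic acids, rose by 6.13 ± 0.13 in HT29 and had too few counts to be tested in the other 3 lines.

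For the other lines the values are given side by side, since no test compared lines. With IFNg, 10 of 13 sensors and adaptors rose in A375 (36.6% of all tested genes rose) and 3 did not pass (10 had an unadjusted p under 0.05, and DESeq2 called 9); 10 of 14 rose and 2 fell in A549 (30.9% and 30.8%), and 9 of 14 rose and 1 fell in MelJuSo (23.8% and 24.8%). Their medians were 0.27, 0.54 and 0.44 on the log2 scale. DDX58 rose by 1.97 ± 0.09 in A375, 2.08 ± 0.07 in A549 and 2.01 ± 0.11 in MelJuSo, and IFIH1 by 1.54 ± 0.09, 3.42 ± 0.09 and 1.20 ± 0.06. The log2 fold change of TMEM173 was 0.20 ± 0.07, 0.02 ± 0.22 and 1.09 ± 0.11, and the A549 value did not pass. TMEM173 differed between genotypes under IFNg in HT29, A375 and MelJuSo, as given below, so its averages describe neither genotype. TLR3, a sensor of double-stranded RNA, had its largest value in A549, where it rose by 3.78 ± 0.10, against 3.49 ± 0.12 in HT29, 2.47 ± 0.07 in A375 and 2.60 ± 0.07 in MelJuSo.

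**Figure D3:**
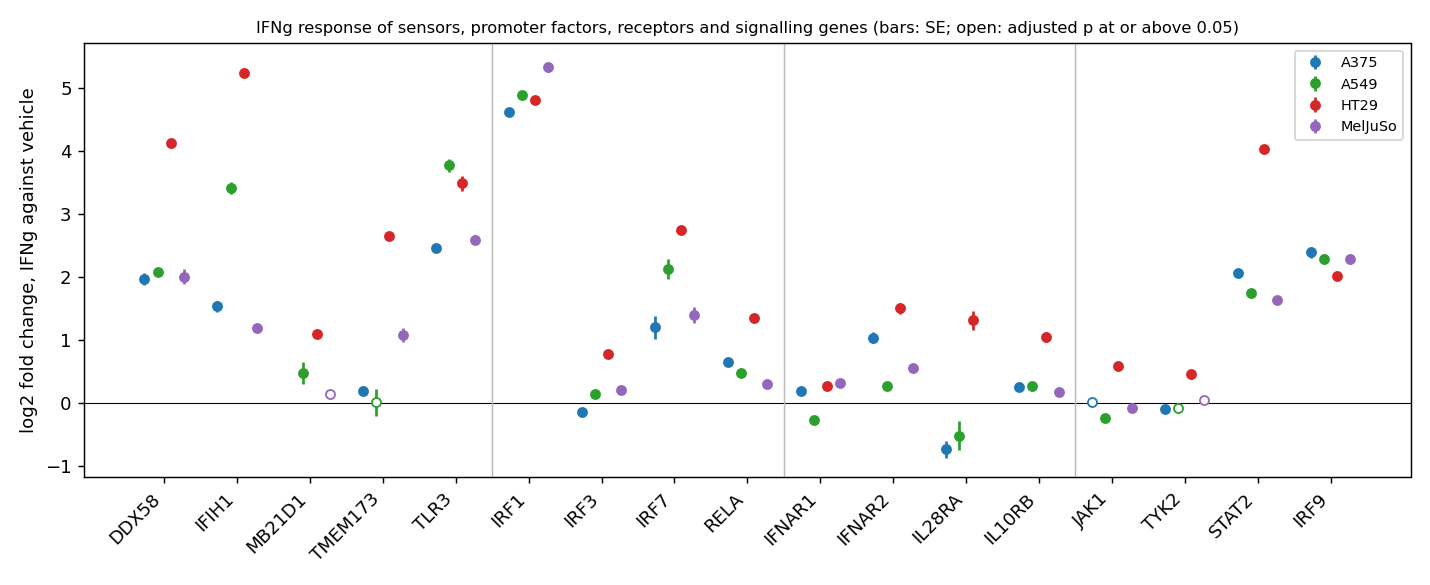
Log2 fold change with IFNg against vehicle, averaged over both genotypes, for sensors, promoter factors, receptors and signalling genes (left to right, separated by grey lines) in each of the 4 human lines. Bars are the SE of the edgeR fit and open circles did not pass an adjusted p of 0.05. IRF1 rises by 4.63 to 5.33 in every line, while IFIH1, DDX58, TMEM173 and STAT2 have their largest values in HT29.

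Of the 11 factors of the IFNB1 promoter, 9 rose with IFNg in HT29 and 1 (ATF2, -0.48 ± 0.08) fell, with a median of 0.40. Of all tested genes, 36% rose and 37.4% fell. IRF1, an interferon regulatory factor that IFNg induces directly, rose by 4.81 ± 0.04 in HT29 and by 4.63 ± 0.04, 4.90 ± 0.05 and 5.33 ± 0.07 in A375, A549 and MelJuSo. IRF7, which sustains interferon production, rose by 2.76 ± 0.04 in HT29 and by 1.21 ± 0.18, 2.14 ± 0.16 and 1.40 ± 0.12 in the other lines in the same order. RELA, the p65 subunit of NF-kB, rose by 1.35 ± 0.04 in HT29, against 0.66 ± 0.03, 0.47 ± 0.04 and 0.31 ± 0.04. These are averages over both genotypes. In HT29 the RELA response differed between genotypes, as given below, so its average describes neither. IRF3, the factor that TBK1 activates, rose by 0.78 ± 0.04 in HT29, and its log2 fold change was -0.13 ± 0.06, 0.14 ± 0.06 and 0.21 ± 0.07 in the others.

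All 9 receptor and signalling genes rose with IFNg in HT29 (36% of all tested genes rose), with a median of 1.32. IL28RA, the older symbol of the lambda receptor chain IFNLR1, was 2.92 and 4.80 CPM in HT29 control vehicle, 6.32 and 5.95 in Ptpn2-null vehicle, 8.78 in both control IFNg libraries, and 10.9 and 12.7 in Ptpn2-null IFNg. Every IFNg library thus exceeded every vehicle library, and IL28RA rose by 1.32 ± 0.15. In A375 it fell by 0.73 ± 0.13, in A549 its log2 fold change was -0.51 ± 0.23, and no MelJuSo library had a count of it. Between genotypes under IFNg the HT29 value was 0.44 ± 0.18, a call that ended without control IFNg replicate 1 (0.45) or 2 (0.44) or Ptpn2-null IFNg replicate 2 (0.36). Its partner IL10RB rose by 1.05 ± 0.08 and IFNAR2 by 1.51 ± 0.08 in HT29. IFNAR1 rose by 0.27 ± 0.05 in HT29, a rise that depends on scaling: as CPM on total counts it was 73.6 and 76.1 in control vehicle and 72.8 and 65.1 in control IFNg libraries. STAT2 rose by 4.04 ± 0.04 in HT29, and IRF9 by 2.03 ± 0.06; IRF9 rose by 2.40 ± 0.09, 2.29 ± 0.08 and 2.30 ± 0.08 in A375, A549 and MelJuSo. The kinases JAK1 and TYK2 rose by 0.59 ± 0.04 and 0.46 ± 0.07 in HT29.

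Downstream, all 18 antiviral genes tested rose with IFNg in HT29 (36% of all tested genes rose), with a median log2 fold change of 4.88. RSAD2, which encodes the antiviral enzyme viperin, rose by 7.20 ± 0.05, ISG15, a ubiquitin-like modifier, by 4.02 ± 0.03, IFIT1, which binds foreign RNA, by 4.93 ± 0.04 and the GTPase gene MX1 by 5.21 ± 0.04. In A549 16 of 18 rose (30.9% of all genes), with a median of 4.40. In A375 15 of 18 rose and 1 fell (36.6% and 35.6% of all genes), with a median of 1.62. In MelJuSo 15 of 17 rose (23.8%), with a median of 2.07. These values average both genotypes, whose responses to IFNg differed. For the antiviral genes, the genotype difference under IFNg minus that in vehicle had a median of -1.85 in HT29 and 0.91 in A549. That median was 1.22 in MelJuSo and, with vehicle labels that PTPN2 goes against, 2.76 in A375. MX1 rose by 1.30 ± 0.10 in A375 and 4.47 ± 0.22 in A549, and its value in MelJuSo was 0.08 ± 0.18, which did not pass.

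Between genotypes in vehicle, antiviral genes were higher in Ptpn2-null than in control HT29 cells. In these libraries IFNB1 had 5 and 1 counts against 0 and 0, and IFNL1 had 3 and 2 against 2 and 2. IFNL2 had 1 and 2 against 1 and 1, and IFNL3 had 0 and 1 against 0 and 0. A link between these counts and the antiviral genes was not tested. The genotype difference in vehicle was called for all 18 antiviral genes, where 12.5% of all tested genes were higher. The median of the antiviral genes was 1.72 against 0.02 for all genes. ISG15 was 61.0 and 61.5 CPM in control and 170 and 151 CPM in Ptpn2-null vehicle libraries, and MX1 was 13.0 and 15.5 CPM against 63.2 and 57.8 CPM. RSAD2 rose by 3.17 ± 0.17 and OAS2, a sensor of double-stranded RNA, by 2.57 ± 0.08. Of the sensors and adaptors 11 of 15 rose, DDX58 by 1.40 ± 0.07 and IFIH1 by 1.40 ± 0.09, and of the receptor and signalling genes 5 of 9 rose, among them STAT2 (0.89 ± 0.08) and IRF9 (1.03 ± 0.11). That count of 5 was 3 without control vehicle replicate 1. Of the promoter factors 3 of 11 rose and 1 fell, where 8.66% of all genes fell: IRF7 rose by 0.83 ± 0.08 and IRF1 by 0.64 ± 0.09.

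In A549 and MelJuSo few genes of these 5 lists differed between genotypes in vehicle. In A549 1 of 60, JUN, rose and 1, EP300, fell (1.56% and 1.38% of all genes), 10 had an unadjusted p under 0.05, and DESeq2 called 0 of the 16 to which it gave an adjusted p. Neither gene was called without control vehicle replicate 2 or without either Ptpn2-null vehicle replicate, and EP300 was not called without control vehicle replicate 1. In MelJuSo edgeR called 0 of 57, where 1.64% of all tested genes were called; 6 had an unadjusted p under 0.05, and DESeq2 called 0 of the 21 to which it gave an adjusted p. In A375, whose vehicle libraries go against their labels for PTPN2, 8 of 61 were higher and 17 lower in the libraries labelled Ptpn2-null (12.4% and 8.73%). These counts were 6 and 9 without the library labelled control vehicle replicate 2 and 5 and 12 without replicate 3; the 17 lower genes were 11 without the library labelled Ptpn2-null vehicle replicate 2, and also 11 without replicate 3.

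Under IFNg the genotype difference of the antiviral genes in HT29 took another form. Of the 18 genes 5 rose and 9 fell in Ptpn2-null against control cells, where 21.3% of all genes rose and 20.5% fell, with a median of -0.04. ISG15 was 1507 and 1533 CPM in control and 1197 and 1119 CPM in Ptpn2-null IFNg libraries and fell by 0.36 ± 0.04 on the log2 scale. HERC5, a ligase that attaches ISG15, fell by 0.67 ± 0.08, IFIT2 rose by 0.58 ± 0.04, and MX1 and IFIT1 did not pass (0.07 ± 0.04 and 0.00 ± 0.04). The test of the difference between both genotype effects was called, towards lower values under IFNg than in vehicle, for all 18 antiviral genes in HT29, against 11.8% of all genes, and also for 18 without control IFNg replicate 1, the library with the lung label. Without that library 5 antiviral genes rose and 7 fell between genotypes under IFNg. In the other lines that difference pointed the other way: it was positive and called for 17 of 18 antiviral genes in A375 (23.1% of all genes), 8 of 18 in A549 (6.36%; 5 without control IFNg replicate 2, control vehicle replicate 2, Ptpn2-null IFNg replicate 1 or Ptpn2-null vehicle replicate 2) and 11 of 17 in MelJuSo (16.6%), where 1, HERC5, was lower (18.8%). The A375 count rests on vehicle labels that PTPN2 goes against; with the A375 vehicle labels exchanged, an alternative chosen after seeing the data, it was 16 of 18. Under IFNg, antiviral genes were higher in Ptpn2-null cells for 18 of 18 in A375 (25.8%), 16 of 18 in A549 (13%) and 14 of 17 in MelJuSo, with 1 lower (25.5% and 25.7%).

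**Figure D4:**
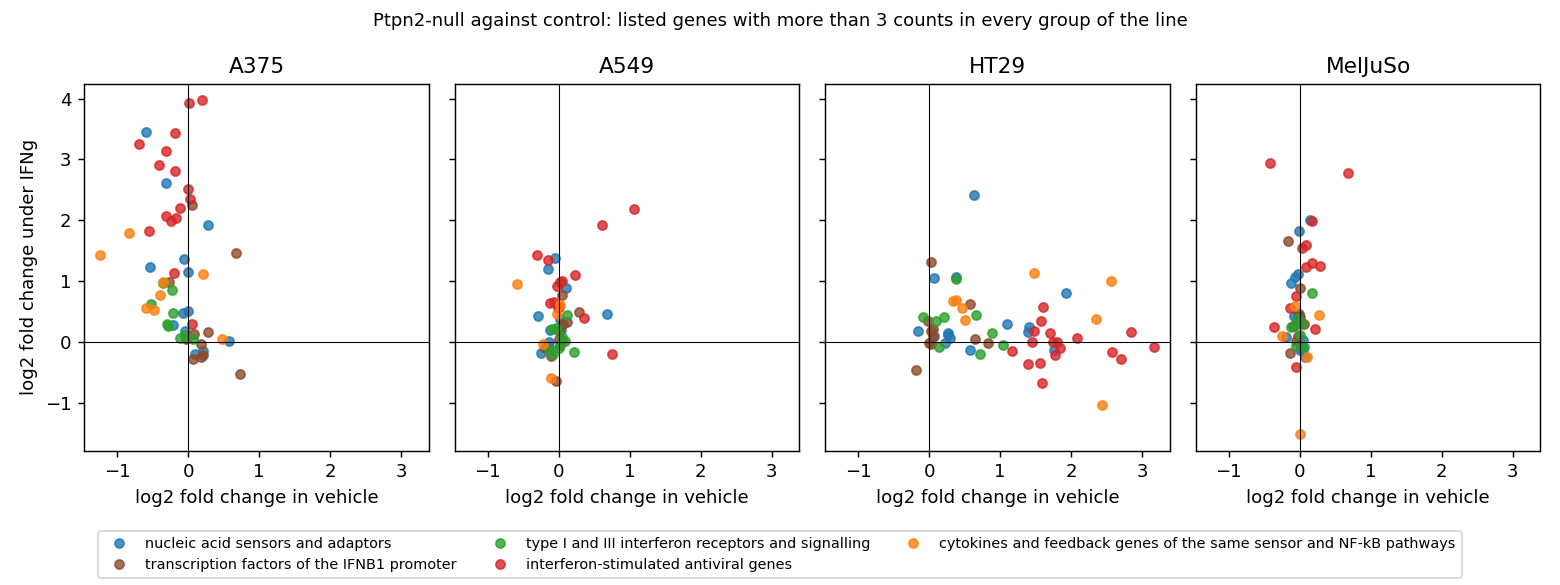
Log2 fold change of Ptpn2-null against control in vehicle (horizontal axis) and under IFNg (vertical axis) for the listed genes with more than 3 counts in every group of a line, coloured by list: 61 genes in HT29, 57 in A375, and 51 each in A549 and MelJuSo. In HT29 the 18 antiviral genes (red) lie to the right of 0 and between -0.67 (HERC5) and 0.58 (IFIT2) on the vertical axis; in the other lines most lie above 0 and near 0 on the horizontal axis.

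Under IFNg, with IFNB1 and IFNL1 lower and IFNL2 higher in Ptpn2-null HT29 cells, several upstream genes were higher. TMEM173 was 58.4 and 58.7 CPM in control and 294 and 322 CPM in Ptpn2-null IFNg libraries, and rose by 2.42 ± 0.06. RELA was 159 and 166 CPM against 377 and 415 CPM, and rose by 1.31 ± 0.05, whereas in vehicle its difference was 0.03 ± 0.06 and did not pass. TICAM1, the TLR3 adaptor, rose by 1.05 ± 0.08 and IKBKE, a kinase related to TBK1, by 1.08 ± 0.11. IFNAR2 rose by 1.03 ± 0.10. IRF1 (0.05 ± 0.04), IRF3 (-0.02 ± 0.06) and IRF7 (-0.01 ± 0.05) did not pass. In all, 8 of 15 sensors and adaptors rose and 1 fell, and 4 of 11 promoter factors rose and 1 fell. Of all tested genes, 21.3% rose and 20.5% fell. The genotype difference under IFNg exceeded that in vehicle for TMEM173 (by 1.80 ± 0.13) and RELA (by 1.28 ± 0.08), and was smaller for IRF1 (by -0.59 ± 0.10) and IRF7 (by -0.83 ± 0.09). TMEM173 was also higher in Ptpn2-null cells under IFNg in A375 (1.92 ± 0.08) and MelJuSo (1.82 ± 0.13); in A549 it was 1.21 ± 0.29, a call that ended without Ptpn2-null IFNg replicate 2 (0.78). RELA rose there by 0.14 ± 0.04 in A375, 0.29 ± 0.06 in A549 and 0.46 ± 0.05 in MelJuSo.

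Of the 9 cytokine and feedback genes tested in HT29, 8 rose with IFNg, and 1, PTGS2, which encodes cyclooxygenase 2, fell by 2.66 ± 0.08. Of all tested genes, 36% rose and 37.4% fell. CXCL10, a chemokine for T cells, was 2.04 and 1.87 CPM in control vehicle, 12.8 and 10.3 in Ptpn2-null vehicle, 5409 and 5502 in control IFNg, and 10617 and 10706 in Ptpn2-null IFNg libraries. CXCL10 rose with IFNg by 10.91 ± 0.05 and was also called between genotypes under IFNg, where both Ptpn2-null libraries lay above both controls. CCL5, another T cell chemokine, was 142 and 148 CPM in control and 71.7 and 66.6 CPM in Ptpn2-null IFNg libraries, against 0.584 and 0.267 CPM and 2.30 and 2.38 CPM in the matching vehicle libraries. It was higher in Ptpn2-null cells in vehicle (2.44 ± 0.51) and fell by 1.03 ± 0.06 under IFNg. CCL5 was the only gene of 9 that fell there while 8 rose (20.5% and 21.3% of all genes). TNF was 2.13 and 2.23 CPM in control and 3.85 and 6.68 CPM in Ptpn2-null IFNg libraries; its rise of 1.25 ± 0.33 was not called without Ptpn2-null IFNg replicate 2 (0.86). TNFAIP3, a feedback inhibitor of NF-kB, rose by 1.13 ± 0.09 and IL8, a neutrophil chemokine, by 0.57 ± 0.05 between genotypes under IFNg.

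CXCL10 was raised in Ptpn2-null cells under IFNg in each line. Summed over libraries it had 6167 counts in the A375 libraries labelled Ptpn2-null IFNg and 16 in those labelled control IFNg, 221 and 1 in A549, and 130 and 3 in MelJuSo. The count of cytokine and feedback genes higher in Ptpn2-null cells under IFNg was 8 of 10 in A375 (25.8% of all genes). It was 6 of 8 in A549 with 1 lower (13% and 11.3%), and 4 of 7 in MelJuSo with 1 lower (25.5% and 25.7%).

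Leukocyte markers were read because immune cells can make interferons. In HT29 they were higher under IFNg than in vehicle, and higher in Ptpn2-null than in control cells. In bulk libraries, immune cells and tumour cells that express such a marker cannot be told apart. Their summed level over 12 rows was 23.7 to 26.7 CPM in control vehicle, 41.6 to 41.9 in Ptpn2-null vehicle, 60.0 to 61.4 in control IFNg and 116 to 124 in Ptpn2-null IFNg libraries. The T cell marker CD3E and the plasmacytoid dendritic cell markers CLEC4C and LILRA4 had no count in any of the 4 HT29 groups, and PTPRC, which encodes CD45, had none in 3 of them. Of these markers CD14, ITGAM and CD68 had enough counts to test, and 3 of 3 rose with IFNg (36% of all genes). In Ptpn2-null cells 2 of 3 were higher in vehicle (12.5%) and 3 of 3 under IFNg (21.3%). The vehicle call of CD68 (0.67 ± 0.18) ended without control vehicle replicate 2 (0.59) or Ptpn2-null vehicle replicate 1 (0.57). Under IFNg, leukocyte markers were also higher in A375 libraries labelled Ptpn2-null (2 of 2 tested, summed 192 to 212 against 123 to 129 CPM). In A549 2 of 4 were higher (80.7 to 87.6 against 47.3 to 48.0 CPM). These counts stand beside 25.8% and 13% of all genes. In MelJuSo 0 of 1 was called (51.5 to 53.1 against 49.0 to 62.1 CPM). With IFNg against vehicle, 0 markers rose and 1 fell in A375, 1 rose and 1 fell in A549, and none was called in MelJuSo. Their part in the interferon counts was not tested.

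The mouse melanoma line B16 offered the same gene in 42 libraries of 14 groups, with Bro3 as the non-targeting guide. Cells received vehicle, or interferon beta at 1000 U/mL, TNFa at 10 ng/mL and IFNg at 100 ng/mL, singly or as pairs. Ifnb1 had 47 counts in all. Of these, 36 were in the 3 Ptpn2-null libraries treated with IFNg and TNFa together, with 10, 17 and 9 counts, and the other 39 libraries held 11, with at most 2 in any one. The control libraries under the same pair of cytokines had 0, 2 and 2 counts, and the groups did not overlap. The mean levels were 2.10 ± 0.903 CPM (SD, n = 3) and 0.238 ± 0.206 CPM (SD, n = 3), a ratio of summed counts of 8.28 with a 95% counting interval of 2.97 to 32.0. The two-sided exact permutation test of these CPM gave p = 0.1, the smallest value that 3 against 3 libraries allow. It was chosen after the counts were seen. The mouse lambda rows, Il28a and Il28b, had no count in any B16 library.

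**Figure D5:**
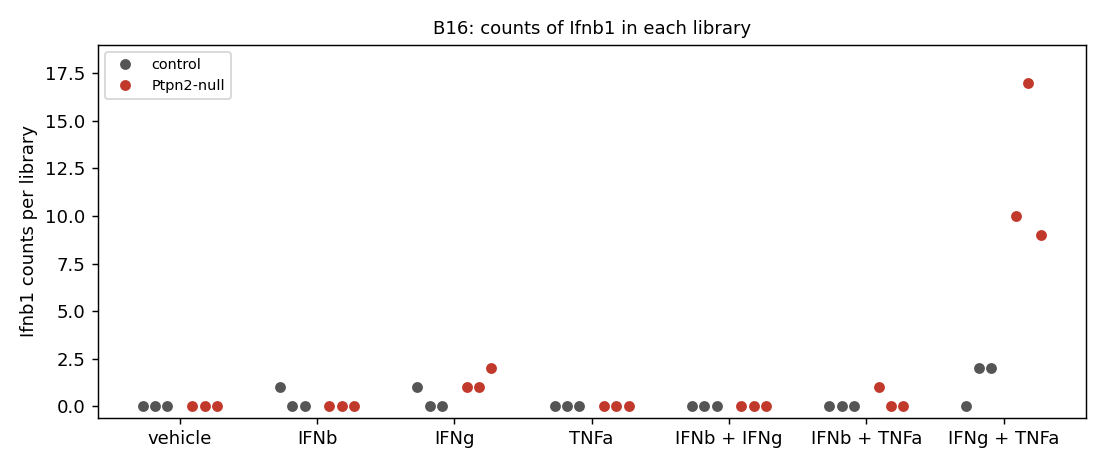
Counts of Ifnb1 in each B16 library by cytokine treatment, grey for control and red for Ptpn2-null, 3 libraries a group. The 3 Ptpn2-null libraries treated with IFNg and TNFa hold 10, 17 and 9 counts, and every other library holds at most 2.

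TNFa activates NF-kB, and the Ifnb1 promoter is shown here as background, with its NF-kB type motif. Under TNFa alone, Ifnb1 had 0 counts in either genotype. Under IFNg alone it had 4 counts in Ptpn2-null and 1 in control libraries. Under IFNg with TNFa it had 36 and 4. A part of NF-kB in these counts was not tested. The 130 bases before the start of mouse Ifnb1 (RefSeq, GRCm38.p6, chr4:88522795-88522924, minus strand) read, 5′ to 3′ with the match to GGAAATTCC in capitals:

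Ifnb1 promoter: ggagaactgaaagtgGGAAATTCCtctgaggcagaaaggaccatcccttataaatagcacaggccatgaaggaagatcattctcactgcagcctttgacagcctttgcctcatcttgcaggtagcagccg

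Both strands were searched for GGAAATTCC and for GAAANNGAA, a pattern of interferon regulatory factors. The first matched once, from base -115 to base -107 counted back from the RefSeq start. That annotated start was not checked against reads, so distances from the start used in cells may differ and the window may hold transcribed bases. Of 32851 mouse promoter windows of this length, 0.143% hold such a match. The second had no match in this window, against 3.37% of windows with such a match. Only this window and this spacing were searched. The search thus does not show that the promoter lacks a site for interferon regulatory factors. A match describes letters and is not a binding site.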

How the data were processed

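Poly(A) RNA was sequenced from 39 human and 42 mouse B16 libraries. The deposited values are raw counts per gene made by the authors; the submitters' processing notes name HTSeq 0.6.1p1 and Bowtie2 2.2.4, and before them Trimmomatic 0.33 and bcl2fastq 2.17.1.14. The strand setting, the annotation and the handling of multi-mapping reads were not given in the sources used here. CPM were computed on the total counts of a library, and intervals (95%, exact Poisson or binomial) and floors of 3 counts cover counting error only. Each human line was fitted on its own with edgeR 4.0.16 (R 4.3.3): TMM scaling, filterByExpr, a quasi-likelihood F test over its 4 groups, Benjamini-Hochberg adjustment over all tested genes and a threshold of 0.05. DESeq2 1.42.0, other scaling, no filter, a replicate block, fits of the compared groups alone and left-out libraries were alternatives. The fit was tested on simulated data. Replicates differed by a chi-square of 1.15 to 2.03 per degree of freedom over 30 pairs, and none was counted as a duplicate. The members, gene lists and tests were chosen with earlier results of these data known; the test of the genotype difference between treatments, the left-out-library counts of the lists and the mouse permutation test (scipy 1.17.1) were added after seeing the data. The text names a fixed set of pathway genes and, from each list, line and comparison, up to 4 called genes with the largest change; ATF2, MAVS, TICAM1, IKBKE, TNF, JUN, EP300, HERC5 and the leukocyte markers were partly chosen after their values were seen. Of the fixed set, 1 gene is not reported here.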

Additional observations from a re-analysis of the deposited data

Results flagged for a closer look

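For the 4 results given here the genotype difference had opposite signs in vehicle and under IFNg, each called, and the edgeR test of the difference between them was called as well. Each call held in every alternative run, except for IL8 with the A375 vehicle labels exchanged. All values are log2 fold changes of Ptpn2-null against control, and this comparison was added after seeing the data. In HT29, CCL5 was 2.44 in vehicle and -1.03 under IFNg, a difference of -3.47 ± 0.49 (SE, adjusted p = 1.16e-07). ISG15 in HT29 was 1.40 and -0.36, a difference of -1.76 ± 0.07 (adjusted p = 6.68e-28).

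In A375 the signs were the other way round, with vehicle libraries that go against their labels for PTPN2. IL8 was -1.24 in vehicle and 1.44 under IFNg, a difference of 2.68 ± 0.15 (adjusted p = 5.38e-42). STAT2 was -0.35 and 0.97, a difference of 1.32 ± 0.08 (adjusted p = 1.43e-35). The vehicle signs of both genes rest on those labels: with the A375 vehicle labels exchanged, both genotype differences of each gene would be positive, and the difference between them was 0.20 ± 0.15 for IL8 (adjusted p = 0.357) and 0.63 ± 0.08 for STAT2 (adjusted p = 2.07e-11). Groups of 2 or 3 libraries were too small for a test of single outlying libraries.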

How the results depend on the processing

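Depth limits the vehicle levels and the other lines, where the interferon genes had 0 to 5 counts a library; with 2 or 3 libraries a group, single libraries move many counts of calls. No called direction of a named pathway gene was reversed in the alternatives run. Of the untested HT29 ratios of Ptpn2-null over control, that of IFNL3 under IFNg went from 0.927 to 1.04 without Ptpn2-null IFNg replicate 1, and without Ptpn2-null vehicle replicate 1 the vehicle ratio of IFNL1 went from 1.10 to 0.949 and the lower bound for IFNB1 from 1.76 to 0.632. With the A375 vehicle labels exchanged, which turns every A375 vehicle difference round by construction, 3989 genes against 6314 were called for the difference between both genotype effects in A375. Among the pathway genes, 2551 values kept their call under the other settings, 59 lost it and 10 gained it; with a library left out, 5524 kept it, 205 lost it and 18 gained it. DESeq2 called fewer genes than edgeR between genotypes: in vehicle 1594 against 2831 in A375, 93 against 388 in A549, 1329 against 2653 in HT29 and 111 against 201 in MelJuSo. Under IFNg it called 1484 against 3197 in A549 and 3468 against 5258 in HT29, and for the difference between both genotype effects 506 against 1486 in A549 and 1245 against 2403 in HT29. The causes of these differences were not tested.

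Same-numbered replicates were at most weakly alike in their deviations from the group means. In HT29 and A549 all correlations were above 0, at 0.0218 to 0.118 and 0.00334 to 0.0397. They ran from -0.0347 to 0.0681 in A375 and from -0.0156 to 0.0966 in MelJuSo. With the replicate number as a block, 311 genes were called in MelJuSo vehicle against 201, and 2797 in A375, 448 in A549 and 2870 in HT29 vehicle. With only the compared groups in the fit, MelJuSo vehicle had 366 calls. With 1 library left out, the calls between genotypes in vehicle ranged from 1626 to 3033 in HT29, 97 to 243 in MelJuSo, 1763 to 2923 in A375 and 134 to 401 in A549. A group left with 1 library is assumed to vary like the others. TMM scaling moved mean HT29 levels by more than 1 SD for IFNB1 in control IFNg (19.9 CPM), IFNL1 in control IFNg (94.7), Ptpn2-null IFNg (70.8) and control vehicle (0.254), and IFNL2 in control IFNg (13.4) and control vehicle (0.127).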
